A study of Danio rerio with 16 samples.

Results

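The cytosolic ribosome is built from ribosomal RNA and a set of ribosomal proteins, and the genes for those proteins were followed here through early zebrafish development. They were taken as every Ensembl zebrafish gene whose symbol, in any case, begins with rpl, rps or rplp followed by a digit, leaving out the kinases named rps6k. The rule found 84 genes among the 32520 with deposited counts, 47 named for the large subunit and 37 for the small subunit. The name rpsa, also in the rule, matched no gene and was not analysed here. Of the 84 genes, 7 have a symbol that marks them as like a ribosomal protein or as binding one. These are RPL22L1, RPL7L1, rplp2l, RPL36AL, rps11l, rps27l and rps19bp1. The symbol alone does not say whether the product is part of the ribosome. All 84 passed the filter on low counts and were tested.

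As background, ribosomal proteins of the large subunit surround the centre where peptide bonds form and the tunnel through which the new chain leaves, while those of the small subunit hold the messenger RNA and its decoding site. Each ribosome takes about equal numbers of most of these proteins, and in mammals their messenger RNAs share a pyrimidine-rich start (a TOP sequence) through which translation of the whole set is turned up or down together. The zebrafish egg is loaded with maternal ribosomes, and the embryo makes its own while gastrulation ends and the somites and organs begin to form.

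RNA was taken from whole embryos labelled wild type (WT), with polyadenylated RNA enriched and the strand kept in the library. All embryos had received a locked nucleic acid (LNA) at 0 hours post fertilization (hpf), a short antisense oligonucleotide with modified sugars that binds RNA tightly. Control embryos received a scrambled LNA and knockdown embryos the Bik-1 LNA, which is named for BHIKHARI, an endogenous retrovirus. Each treatment was sampled at 8, 11, 14 and 18 hpf, with 2 replicates in each of the 8 groups and 16 libraries in all. The labels do not say whether replicates came from separate clutches or injections, so a p-value here covers the spread among these libraries and nothing more, and that spread may be technical. Uninjected embryos were not analysed here, and effects of injection that both treatments share cannot be told apart from development.

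The libraries held 4399855 to 7694887 counts, and 260737 to 1100244 of these lay in the ribosomal protein genes. The BHIKHARI_LTR repeat family, the check of the labels, stood at 34.8 to 751 CPM (counts scaled to library size after TMM normalization) in the knockdown and 98.9 to 2822 CPM in the controls over the 4 times, and it fell at each time, by 1.52 at 18 hpf to 2.03 at 14 hpf on the log2 scale (adjusted p of 1.49e-06 to 0.000201 with edgeR's quasi-likelihood test). Markers of neural plate, mesoderm, enveloping layer and neural crest had counts in every library. Blood markers (gata1a, tal1 and lmo2) were close to 0 at 8 hpf, with a summed level of at most 1.27 CPM. In whole embryos a change in the share of a cell type and a change in RNA per cell cannot be told apart.

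Ribosomal protein transcripts came to take a larger share of all counts at each later time. In the controls the 84 genes held 4.60% and 4.64% of all counts (8 hpf, replicate 1 and then 2), 7.90% and 7.51% (11 hpf), 9.33% and 10.6% (14 hpf), then 14.0% and 14.9% (18 hpf). The mean share at 18 hpf was 14.4% ± 0.665 (SD, n = 2), 3.12 times the 4.62% ± 0.026 (SD, n = 2) at 8 hpf. No control library overlapped those of the time before or after it. Both subunits took part. Between 8 and 18 hpf large subunit genes went from 2.71% and 2.75% of counts to 8.28% and 8.91%, and small subunit genes from 1.89% and 1.89% to 5.69% and 6.0%. The ratio of large to small subunit counts stayed between 1.40 and 1.49 over all 16 libraries, so the subunits moved in step. Counts are not divided by gene length here, so this ratio is not a ratio of transcript numbers.

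**Figure D1:**
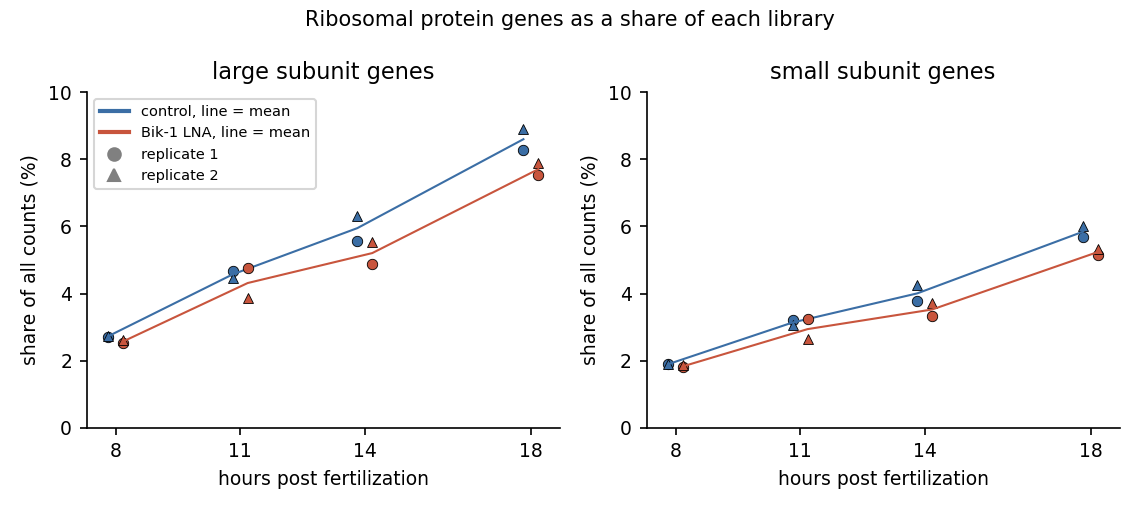
Share of all counts (y axis, percent) in large subunit genes (left) and small subunit genes (right) against time (x axis, hours post fertilization), with each library as a point and lines through the means of 2 replicates. The control means of large subunit genes go from 2.73% at 8 hpf to 8.59% at 18 hpf, and knockdown points lie below both control points at 8, 14 and 18 hpf.

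Gene by gene, the rise was nearly general. Between 8 and 18 hpf in the controls, 79 of 84 genes rose and 2 fell at an edgeR adjusted p under 0.05. Over all 17756 features tested 33.7% were called higher and 26.4% lower (60% in either direction). The ribosomal protein genes are counted deeply, and the median SE of this change was 0.13 for them against 0.35 for all features. The median log2 change was 1.58 (3.0-fold), 1.61 for the large and 1.54 for the small subunit, against 0.10 for all features. The genes also moved by similar amounts: from the lower to the upper quartile they spanned 1.42 to 1.70, a width of 0.28 against 2.17 for all features.

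The genes were also followed step by step, over steps of unequal length. Where a library was left out, the share of all features called is not given here. Those counts show only how far a count rests on that library. From 8 to 11 hpf 77 genes rose and 0 fell, 44 of the large and 33 of the small subunit, with a median log2 change of 0.60. Over all features 18.4% were called higher and 12% lower. From 14 to 18 hpf 72 rose and 0 fell, 41 and 31, with a median of 0.57. Over all features 7.76% were called higher and 3.85% lower. That count rests on single control libraries, being 14 when replicate 1 of the 14 hpf controls was left out and 26 when replicate 2 of the 18 hpf controls was. From 11 to 14 hpf only 6 genes passed, RPS4Y2, RPL21, RPL19, RPL31, RPL8 and RPL13, where 1.95% of all features were called higher and 0.681% lower. The median in that step was 0.38, and 69 genes had an unadjusted p under 0.05 (14.7% of all features did). The 11 to 14 hpf count was 0 without either control 11 hpf library or control 14 hpf replicate 2, 2 without any of the 4 libraries of 18 hpf, and 41 or 43 without knockdown 11 hpf replicate 1 or 2.

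**Figure D2:**
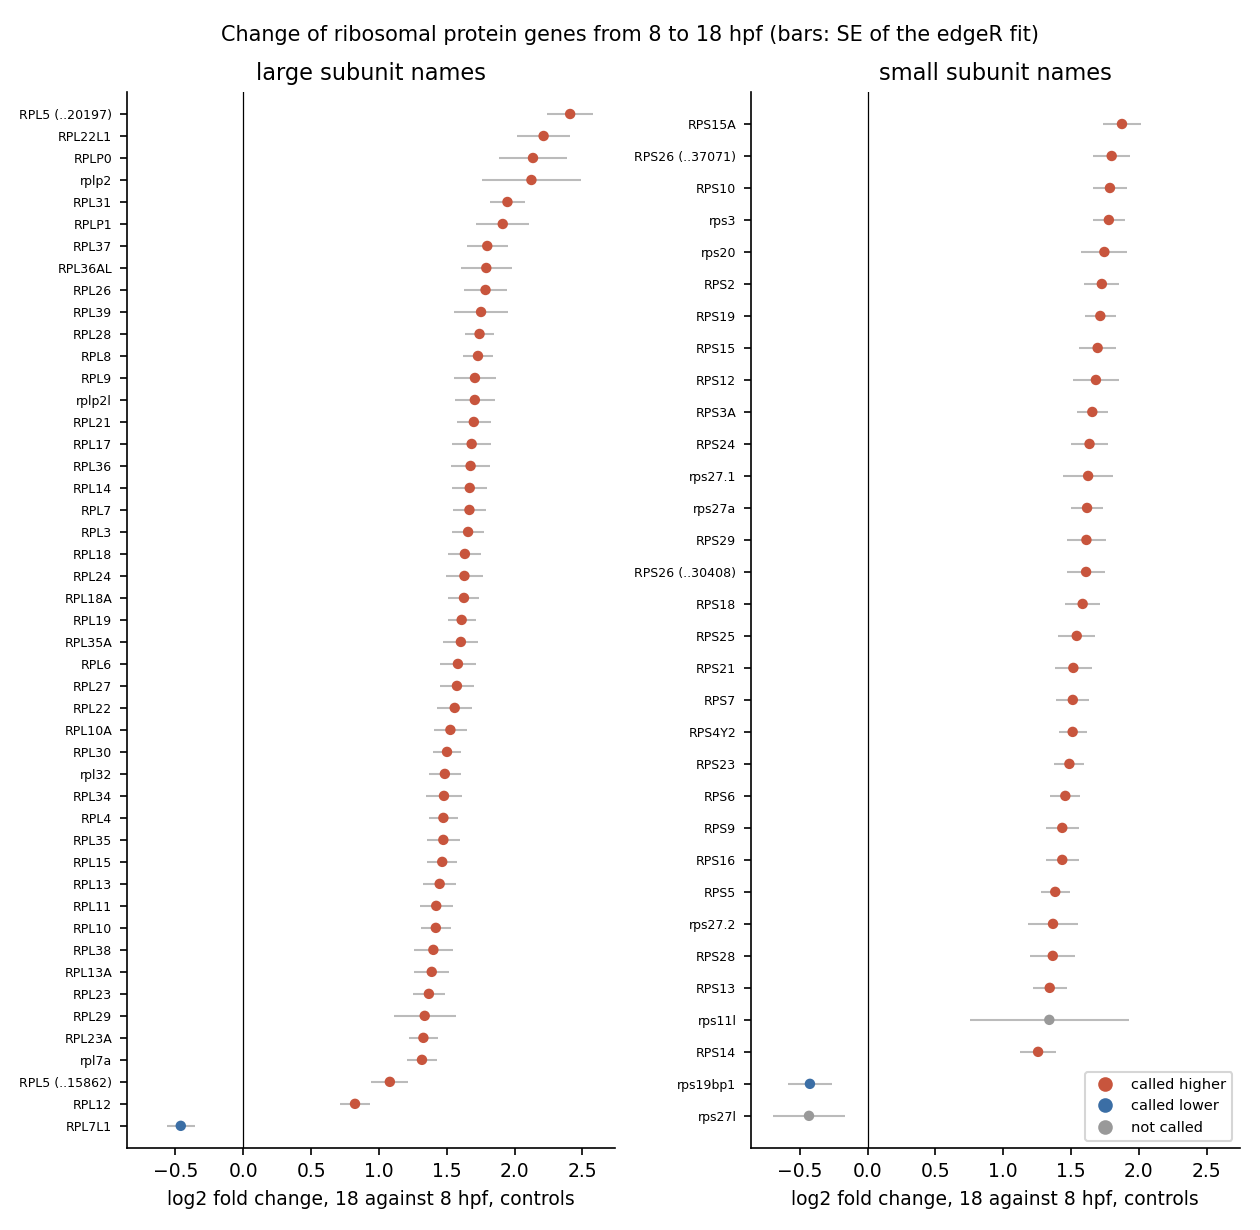
Log2 fold change of 79 of the 84 ribosomal protein genes from 8 to 18 hpf in control embryos (x axis), large subunit genes left and small subunit genes right, with bars of 1 SE from the edgeR fit and genes with a shared symbol marked by the end of their identifier. The lower and upper quartiles of the 84 genes are 1.42 and 1.70, with RPL5 (ENSDARG00000020197) at 2.41 and RPL22L1 at 2.21 farthest to the right and RPL7L1 at -0.46 farthest to the left.

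The stalk genes of the large subunit rose. RPLP0, the stalk base, and RPLP1, rplp2 and rplp2l, the acidic proteins that draw translation factors to the ribosome, rose by 2.14 (SE 0.25, adjusted p = 2.19e-05), 1.91 (SE 0.20), 2.12 (SE 0.36) and 1.71 (SE 0.15) on the log2 scale. RPLP0 stood at 1680.1 and 1694 CPM in the 8 hpf controls, then at 3755 and 2453 CPM (11 hpf), 3749 and 4252 CPM (14 hpf), and 7198 and 7633 CPM (18 hpf). The 11 hpf replicates of RPLP0 lay far apart, while those of 8 and 18 hpf lay close together. RPL12, which sits where the stalk joins the subunit in yeast and mammals, rose by only 0.82 (SE 0.11, adjusted p of 1.05e-05), the smallest called rise. Its control levels went from 1003 and 1044 CPM at 8 hpf to 1725 and 1898 CPM at 18 hpf, and it did not pass between 8 and 11 hpf (0.15, SE 0.11).

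RPL5 and RPL11 bind the small 5S ribosomal RNA and, in mammals, hold back the p53 regulator MDM2 when ribosome assembly fails. RPL11 rose by 1.42 (SE 0.12). The symbol RPL5 belongs to 2 genes that behaved differently. RPL5 (ENSDARG00000020197) had the largest change of the 84 genes, 2.41 (SE 0.17, adjusted p = 2.21e-08), from 463 and 481 CPM at 8 hpf to 2336 and 2681 CPM at 18 hpf. RPL5 (ENSDARG00000015862) rose by 1.08 (SE 0.14), from 838 and 895 CPM to 1734 and 1931 CPM. RPL3 and RPL8, next to the peptidyl transferase centre, rose by 1.66 (SE 0.12) and 1.73 (SE 0.11). RPL4, which lines the exit tunnel, rose by 1.48 (SE 0.11), and RPL10, which joins late in subunit assembly, by 1.42 (SE 0.11). RPL31, RPL39 and RPL26 rose by 1.95 (SE 0.13), 1.75 (SE 0.20) and 1.79 (SE 0.16). The lowest p of the set belonged to RPL28, at 1.74 (SE 0.10, adjusted p = 1.67e-09), with 381 and 391 CPM at 8 hpf against 1253 and 1327 CPM at 18 hpf, followed by RPL19 at 1.61 (SE 0.10).

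Small subunit genes rose by much the same amounts. Among the 34 with a plain name, RPS15A rose most, by 1.88 (SE 0.14). The mRNA entry proteins rps3 and RPS2 rose by 1.78 (SE 0.12) and 1.73 (SE 0.13). RPS19, which is mutated in human Diamond-Blackfan anaemia, rose by 1.72 (SE 0.11, adjusted p of 5.46e-09), from 468 and 480 CPM at 8 hpf to 1499.9 and 1615 CPM at 18 hpf. RPS6, the substrate of the growth-regulated S6 kinases, rose by 1.46 (SE 0.11), and RPS14, on the platform of the subunit, by 1.26 (SE 0.13). The ubiquitin fusion gene rps27a rose by 1.62 (SE 0.12).

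The genes that did not join the rise were mostly those with related-protein names. RPL7L1, whose yeast counterpart Rlp7 works in large subunit assembly and is not part of the finished ribosome, fell by 0.46 (SE 0.10, adjusted p = 0.000991) while RPL7 rose by 1.67 (SE 0.12). Its control CPM were 220.4 and 223 (8 hpf), 197 and 202 (11 hpf), 179.8 and 195 (14 hpf), then 158 and 164 (18 hpf), so the 8 and 18 hpf controls did not overlap. The other gene that fell was rps19bp1, which encodes a protein that binds RPS19 in humans, by 0.43 (SE 0.16, adjusted p = 0.0297), with 117 and 127 CPM at 8 hpf and 89.3 and 92.2 CPM at 18 hpf. By DESeq2 that call was lost (-0.39, adjusted p = 0.0703). It was also lost without replicate 2 of the 8 hpf controls (-0.38) and without replicate 1 (-0.40) or replicate 2 (-0.47) of the 18 hpf controls. Of the other genes with related-protein names, RPL22L1 rose by 2.21 (SE 0.19, adjusted p = 2.88e-07), RPL36AL by 1.79 (SE 0.19) and rplp2l as above. rps27l was at -0.43 (SE 0.26, adjusted p = 0.172) and rps11l at 1.34 (SE 0.58, adjusted p = 0.057), and neither passed.

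In 9 families several genes carry the same protein name, 19 genes in all, and their shares of the family's counts show whether the balance between copies shifted. The counts are not divided by length, and reads shared by near-identical copies may have been split between them, so a share says how a balance moved and not which copy is more abundant. In the controls RPL5 (ENSDARG00000020197) held 35.3% ± 0.46 (SD, n = 2) of RPL5 counts at 8 hpf, 46.0% ± 4.0 at 11 hpf, 49.6% ± 1.8 at 14 hpf and 57.8% ± 0.52 at 18 hpf. RPL22L1, a paralog of the RNA-binding protein RPL22, went from 24.4% ± 0.17 of the pair's counts at 8 hpf to 33.6% ± 0.17 at 18 hpf. RPL7L1 went the other way, from 24.8% ± 0.75 of the RPL7 and RPL7L1 counts to 7.02% ± 0.17. In the rps27 family rps27.1 went from 48.6% ± 1.0 to 55.4% ± 0.68 and rps27l from 6.14% ± 0.94 to 1.69% ± 0.17, while rps27.2 was 45.2% ± 2.0 at 8 hpf and 42.9% ± 0.85 at 18 hpf. For each of these genes the 8 and 18 hpf control libraries did not overlap, though those of rps27.2 lay close, at 43.9% and 46.6% against 42.3% and 43.5%.

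In the knockdown embryos RPL5 (ENSDARG00000020197) went from 34.8% ± 0.25 of RPL5 counts at 8 hpf to 54.2% ± 2.0 at 18 hpf. Its knockdown shares lay below both controls at 14 hpf (48.0% and 46.0% against 50.9% and 48.4%) and at 18 hpf (55.6% and 52.8% against 57.4% and 58.1%). RPL22L1 went from 28.8% ± 2.4 to 32.9% ± 0.046, with both 8 hpf knockdown libraries (27.16% and 30.5%) above both controls (24.5% and 24.2%). RPL7L1 went from 22.8% ± 1.5 to 6.99% ± 0.45. Differences in these shares between knockdown and control were not tested. For rps27l the shares were 7.97% ± 1.8, 5.44% ± 0.58, 5.16% ± 1.2 and 2.13% ± 0.23 at the successive times, with both knockdown libraries above both controls at 11, 14 and 18 hpf. The copies of RPS26 moved by little: RPS26 (ENSDARG00000037071) held 40.2% ± 0.011 at 8 hpf and 43.4% ± 0.14 at 18 hpf in the controls.

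**Figure D3:**
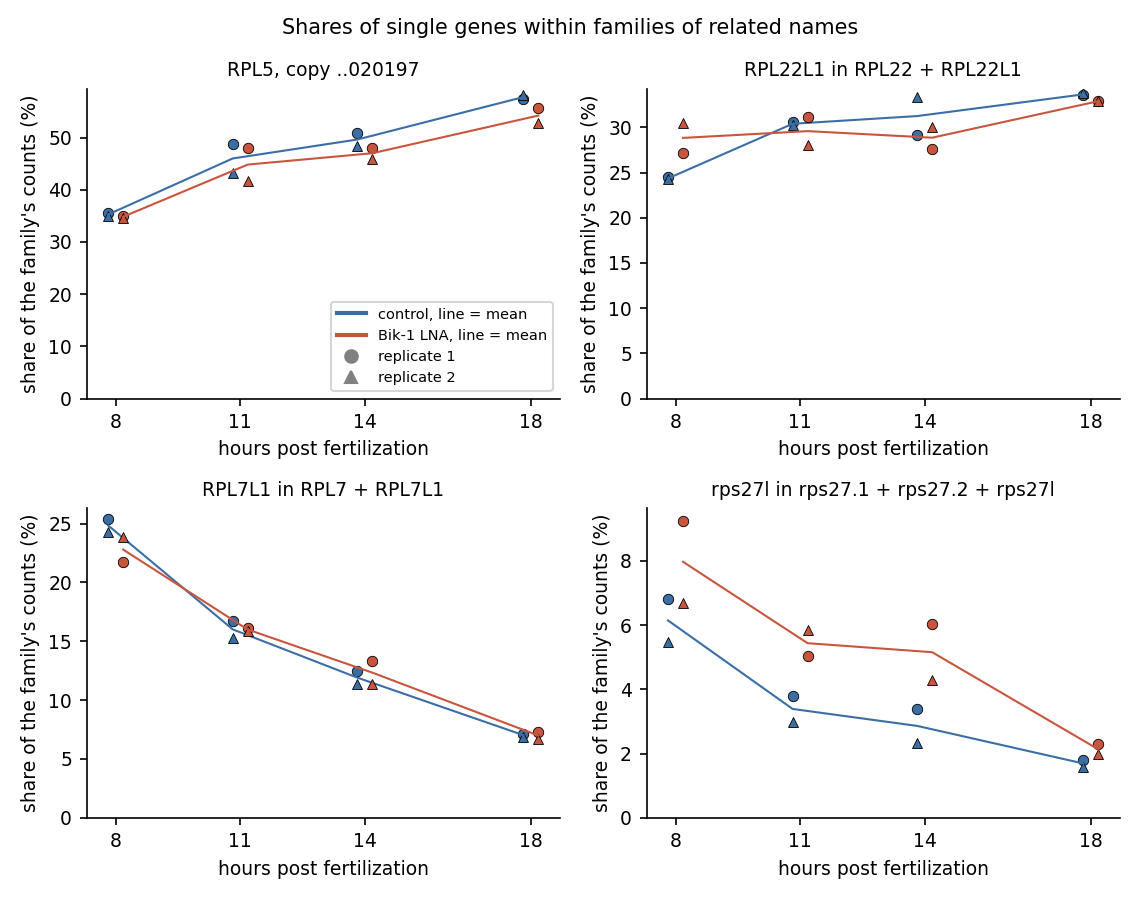
Share of a family's counts (y axes, percent) held by 4 genes, RPL5 (ENSDARG00000020197), RPL22L1, RPL7L1 and rps27l, against hours post fertilization (x axes), with each library as a point and lines through the means of 2 replicates. RPL5 (ENSDARG00000020197) goes from 35.3% to 57.8% and RPL7L1 from 24.8% to 7.02% in the controls, and the knockdown points of rps27l lie above the control points at 11, 14 and 18 hpf.

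The genes also rose in knockdown embryos. Between 8 and 18 hpf 79 of the 84 genes rose and 3 fell (RPL7L1, rps19bp1 and rps27l), where 33% of all features were called higher and 24.9% lower (57.9% in either direction). The call of RPL7L1 held in each of 16 fits that left out a library. That of rps19bp1 was lost without replicate 2 of the 8 hpf or replicate 1 of the 18 hpf knockdown, and that of rps27l without replicate 1 of the 8 hpf knockdown or any of the 4 libraries of 18 hpf. With library totals in place of TMM the calls of rps19bp1 (-0.34) and rps27l (-0.54) were also lost. The median log2 change was 1.45, against 1.58 in the controls. Across the 84 genes, which are not independent replicates, the changes in knockdown and control, from separate libraries, were related with Pearson's r = 0.968 and Spearman's rho = 0.882. With plain names only they were 0.927 and 0.859 (77 genes), and over all features 0.915 and 0.922. The change was smaller in the knockdown for 76 of 84 genes, where 49.2% of all features lay on that side. When the difference of the changes was tested, 0 genes passed by edgeR and 0 by DESeq2, 0 had an unadjusted p under 0.05, and the median difference was -0.16. Of all features 0% were called in that test and 5.76% had an unadjusted p under 0.05.

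The next question was whether the Bik-1 LNA changed these genes at a given time. The levels lay a little lower in the knockdown, mainly at 14 and 18 hpf, but almost no single gene passed. Their share of all counts in the knockdown was 4.33% and 4.48% (8 hpf), 8.0% and 6.5% (11 hpf), 8.2% and 9.26% (14 hpf), then 12.7% and 13.2% (18 hpf). Divided by the control mean the knockdown mean was 0.953, 0.941, 0.877 and 0.896 at the successive times. The knockdown libraries lay below both controls at 8, 14 and 18 hpf, while at 11 hpf replicate 1 lay above both and replicate 2 below both.

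Averaged over the 4 times, 1 gene was called lower, RPL31, and 0 higher, where 1.3% of all features were called lower and 1.63% in either direction. The median log2 change was -0.14 (-0.14 for the large and -0.13 for the small subunit), against 0.01 for all features. Of the 84 genes 80 lay below 0 (48.3% of all features did), and 43 had an unadjusted p under 0.05 (15.4% of all features did), 42 of them lower (8.14%). DESeq2 called 4 genes, all lower (RPL31, RPS12, RPL21 and RPL39), and 2.44% of all features. For fits that leave out a library the share of all features called is not given here. Counts from them show only how far the main count rests on single libraries. The count depended on single libraries. It was 35 when replicate 1 of the 11 hpf knockdown was left out and 2 without replicate 2 of the 11 hpf controls. It was 1 without the first replicate of the 8 or of the 18 hpf controls, and 0 without each of the other 12 libraries.

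At single times 0 genes were called. At 8 hpf 58 of 84 genes lay below 0, the median was -0.04 and 1 gene (RPL31) had an unadjusted p under 0.05, with 0.344% of all features called, 47.3% below 0 and 9.19% with such a p. At 11 hpf 78 lay below 0, the median was -0.08 and 0 had such a p, with 0.00563% of all features called, 48.8% below 0 and 4.64% with such a p. At 14 hpf 83 lay below 0, all but rps27l, the median was -0.23 (0.855-fold) and 15 had such a p, all lower, with 0.00563% of all features called, 49.9% below 0, 5.58% with such a p and 3.42% with such a p and lower. At 18 hpf 82 lay below 0, the median was -0.18 (0.883-fold) and 6 had such a p, with 0.0113% of all features called, 49.9% below 0 and 4.5% with such a p. DESeq2 also called 0 genes at each of the 4 times, where it called 0.642%, 0.0563%, 0.062% and 0.0338% of all features. The median at 8 hpf was -0.09 without control replicate 1 and -0.07 without knockdown replicate 2. At 11 hpf it was 0.08 without knockdown replicate 2, a change of direction, -0.26 without knockdown replicate 1, -0.03 without control replicate 1 and -0.14 without control replicate 2. At 14 hpf it was -0.10 without control replicate 2, -0.14 without knockdown replicate 1 and -0.34 without control replicate 1, and at 18 hpf -0.12 without control replicate 2.

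The median SE of a single gene at a single time was 0.13, so that changes of the size of these medians lie within about 2 SE for most genes. Whether the effect differed between times was tested over the 4 times together, with 0 genes called by edgeR and by DESeq2, 0 with an unadjusted p under 0.05, and 0% of all features called.

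**Figure D4:**
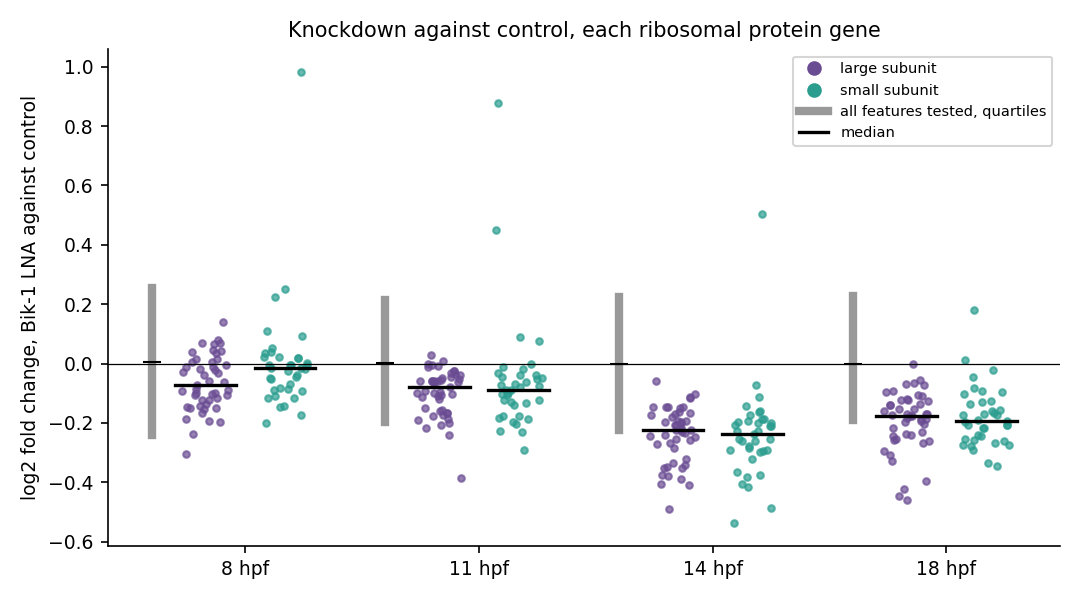
Log2 fold change of each ribosomal protein gene, Bik-1 LNA against scrambled LNA (y axis), at each time (x axis), large and small subunit apart, with black bars at the medians and grey bars from the lower to the upper quartile of all features tested. The medians over both subunits are -0.04, -0.08, -0.23 and -0.18, and at 14 hpf rps27l at 0.50 is the only gene above 0.

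Whether the libraries of the treatments overlapped was also counted, from the same counts as the changes above. The genes moved together within a library, so these counts are not separate observations. Both knockdown libraries lay below both controls for 35 genes at 8 hpf (17.8% of all features), 2 at 11 hpf (RPL7L1 and RPS23, 13.7%), 47 at 14 hpf (21.8%) and 69 at 18 hpf (19.9%). At 14 hpf these were 25 large and 22 small subunit genes, at 18 hpf 40 and 29, and 45 genes did so at both times (7.78% of all features). The reverse order held for 7 genes at 8 hpf (16.7%), 1 at 11 hpf (rps11l, 13.3%), 1 at 14 hpf (rps27l, 21.2%) and 0 at 18 hpf (20.2%).

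RPL31, at the tunnel exit, stood at 398 and 439 CPM in the 8 hpf controls and 348 and 330.0 CPM in the knockdown, then at 685 and 587 against 666 and 510.3 CPM (11 hpf), 864 and 953.5 against 754 and 776 CPM (14 hpf), and 1477 and 1754 against 1223 and 1189 CPM (18 hpf). The groups overlapped at 11 hpf and did not overlap at 8, 14 and 18 hpf. Its average change was -0.27 (SE 0.06, adjusted p = 0.0403 with edgeR), and its change at 18 hpf -0.42 (SE 0.13). The average call held in 11 of 24 other fits, with adjusted p from 2.06e-05 to 0.181. It was lost in 12 of the 16 fits that leave out a library and without the 8 hpf libraries (-0.26, adjusted p = 0.181). The 4 libraries it could lose were the first replicates of the 8 and 18 hpf controls and of the 11 hpf knockdown, and the second replicate of the 11 hpf controls.

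RPL39, a small protein inside the exit tunnel, averaged -0.32 (SE 0.10, adjusted p = 0.126) and RPS12, on the beak of the small subunit, -0.32 (SE 0.08, adjusted p = 0.0746), and neither passed. RPS12 stood at 1399.8 and 1761 CPM in the 14 hpf controls against 1093 and 1163 CPM in the knockdown, a change of -0.49 (SE 0.17). RPL39 stood at 1147 and 1340.0 against 848 and 922 CPM at that time, also -0.49 (SE 0.19). In both genes the knockdown libraries lay below both controls at 8, 14 and 18 hpf. The stalk genes had values of the same size: RPLP0 averaged -0.31 (SE 0.12, adjusted p = 0.25), rplp2 -0.30 (SE 0.18), RPLP1 -0.24 (SE 0.10) and rplp2l -0.22 (SE 0.07). RPLP0 at 18 hpf was 7198 and 7633 CPM in controls and 5544 and 5346 CPM in knockdown, -0.45 (SE 0.24, adjusted p = 0.994). RPL26 and RPL21 averaged -0.26 (SE 0.08) and -0.23 (SE 0.06, adjusted p = 0.0725), and rps27.2 and rps27.1 -0.28 (SE 0.09) and -0.26 (SE 0.09).

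Other genes with known roles lay nearer 0 on average, and none of those that follow was called. Of the proteins that bind 5S ribosomal RNA, RPL11 was at -0.14 (SE 0.06), RPL5 (ENSDARG00000020197) at -0.14 (SE 0.08) and RPL5 (ENSDARG00000015862) at -0.03 (SE 0.07). RPL3, RPL10 and RPL4, in the core of the large subunit, were at -0.09 (SE 0.06), -0.09 (SE 0.05) and -0.06 (SE 0.05). RPL22L1 was at -0.16 (SE 0.09) and its paralog RPL22 at -0.18 (SE 0.06), and the assembly-related RPL7L1 at -0.11 (SE 0.05). In the small subunit RPS14 was at -0.20, RPS19 at -0.16 and rps3 at -0.15, each with an SE of 0.06, and RPS6 at -0.10 (SE 0.05). RPL19, which forms a bridge between the subunits, was at 0.01 (SE 0.05, adjusted p = 0.961), and its sign depends on the scaling at 18 hpf. Its CPM at 8 hpf were 471 and 492 in controls and 509.7 and 506 in knockdown, then 928 and 1079 against 901 and 1025 (14 hpf), and 1487 and 1452 against 1426 and 1509 (18 hpf), so that the groups overlapped at 14 and 18 hpf.

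The gene farthest on the other side was rps27l, a paralog of RPS27 that p53 induces in mammals, at an average of 0.30 (SE 0.13, adjusted p = 0.279). It stood at 53.2 and 42.8 CPM in the 14 hpf controls and 78.6 and 57.5 CPM in the knockdown, 0.50 (SE 0.26, adjusted p = 0.885), and at 18 hpf at 46.2 and 43.4 against 49.4 and 40.6 CPM, 0.01 (SE 0.27). The groups did not overlap at 14 hpf and did at 8, 11 and 18 hpf. The other gene named as a relative that lay above 0, rps11l, averaged 0.14 (SE 0.28).

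**Figure D5:**
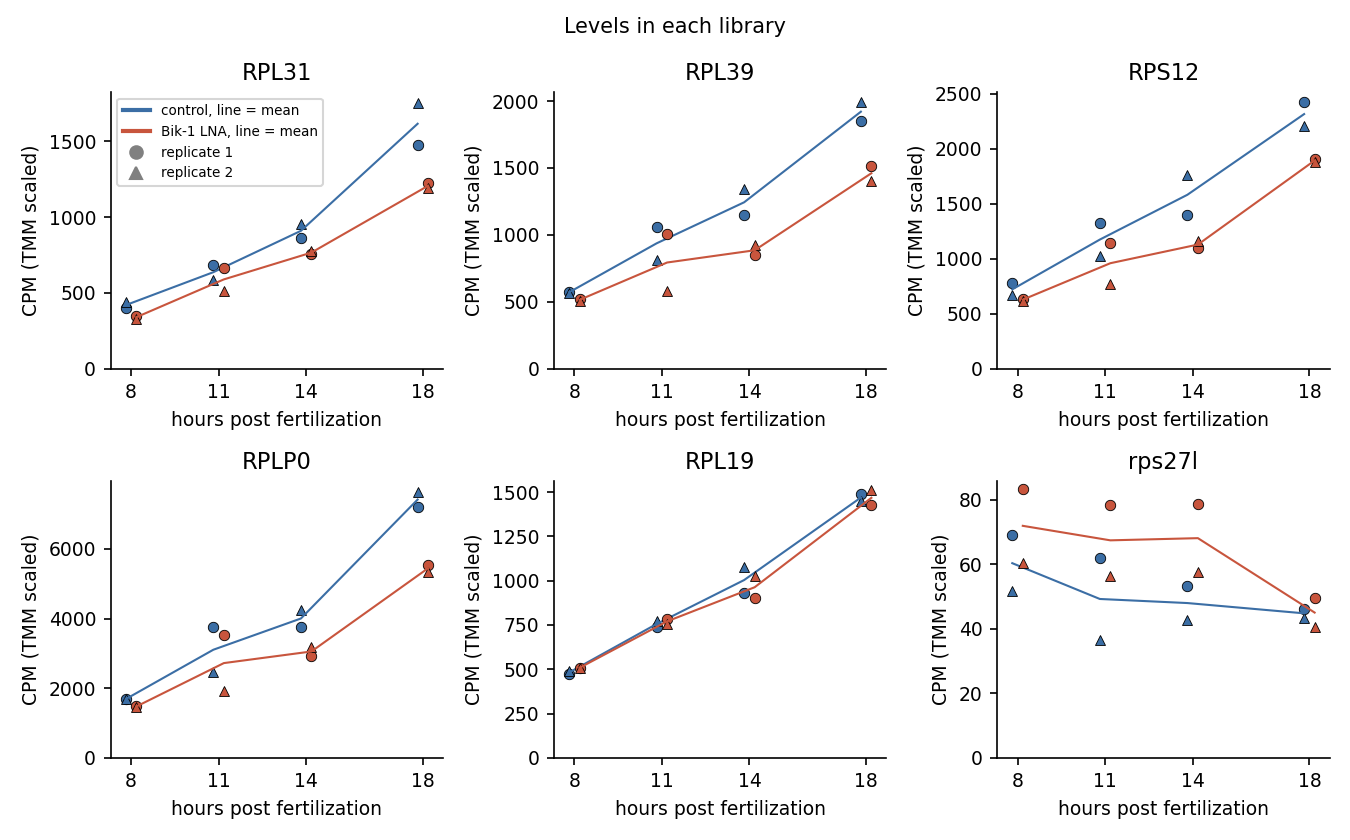
CPM (y axes, TMM scaled) of RPL31, RPL39, RPS12, RPLP0, RPL19 and rps27l against hours post fertilization (x axes), with each library as a point and lines through the means of 2 replicates. The knockdown points of RPL31, RPL39, RPS12 and RPLP0 lie below both control points at 8, 14 and 18 hpf, and those of RPL19 at 18 hpf, 1426 and 1509 CPM, lie on both sides of the controls.

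Several measured differences between libraries are set beside these values, and whether they move together was not tested. Replicates of a group differed over the whole gene set: in the 11 hpf knockdown 1 of 84 genes was higher in replicate 2 (median log2 difference -0.36), and in the 14 hpf controls 83 of 84 were, all but rps27l (median 0.23, the size of the 14 hpf knockdown difference). The part of these differences in the knockdown result was not tested.

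The first principal component of all other features, 65.8% of their variance, ordered the libraries by time and thus runs with age. On it the 14 hpf controls lay at 40.5 and 48.5 and the knockdown at 18.4 and 32.4, the 18 hpf controls at 119.9 and 121.7 and the knockdown at 113.7 and 109.7, and the 11 hpf knockdown at -8.0 and -44.3 against -4.0 and -26.6. The knockdown libraries of 14 and 18 hpf thus lay towards earlier times on this component, and its part in the ribosomal protein result was not tested. Markers of the yolk syncytial layer, 5 genes of which 4 had counts in every library, summed to 1610.1 to 1723 CPM in the 18 hpf controls and 2358 to 2940.4 CPM in the knockdown, with overlapping ranges at 8, 11 and 14 hpf. At 14 hpf the 3 neural plate markers summed to 872 to 904 CPM in the controls and 954 to 993 CPM in the knockdown, and the 3 blood markers to 125.8 to 129.9 CPM and 100.5 to 107.5 CPM. At 18 hpf the 3 neural crest markers summed to 182 to 231 CPM and 239.0 to 246 CPM. The other marker lists, of mesoderm, endoderm, enveloping layer and germ cells, overlapped between treatments at 14 and 18 hpf. At 8 hpf the neural plate sum went the other way, at 922 to 923 CPM in the controls and 789 to 899 CPM in the knockdown. So did the blood sum, at 0.17 to 0.33 against 0.81 to 1.27 CPM. For single features such separation was common. At 14 hpf 21.8% lay below both controls and 21.2% above, and at 18 hpf 19.9% and 20.2%. The part of these markers was not tested either.

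Other genes of the ribosome and its assembly give the setting. The ribosomal proteins with other names, FAU (a ubiquitin-like fusion) and RACK1 (a scaffold on the small subunit), rose from 8 to 18 hpf in the controls, by 1.86 (SE 0.15) and 1.35 (SE 0.12). In the knockdown neither was called, with averages of -0.25 (FAU, adjusted p = 0.0937) and 0.01 (RACK1). Of 78 genes for the ribosome of mitochondria 41 rose and 5 fell between 8 and 18 hpf, where 33.7% of all features were called higher and 26.4% lower. The share called in either direction was near that of all features (60%), but the calls leaned more to rises. The median of these genes of the mitochondrial ribosome was 0.51, against 0.10 for all features. MRPS14 and MRPS7, of its small subunit, rose by 2.20 (SE 0.25) and 2.09 (SE 0.25), and the genes that fell were mrps6, mrpl42, mrps28, MRPL1 and mrps26. On average over the knockdown times 1 fell, MRPL11, by 0.79 (SE 0.13, adjusted p = 0.00437), where 1.3% of all features were called lower. This call held in each of the 16 fits that left out a library. On average 59 of the 78 genes lay below 0, with a median of -0.07, where 48.3% of all features did. At 14 and at 18 hpf 54 lay below 0, where 49.9% of all features did.

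Genes for ribosome assembly mostly fell over time. Of 117 such genes 88 fell and 6 rose from 8 to 18 hpf, with a median of -0.67, where 26.4% of all features were called lower and 33.7% higher. The nucleolar chaperone npm1a fell by 1.55 (SE 0.12), and BMS1 and MPHOSPH10, of the particle that processes the small subunit precursor, by 1.41 (SE 0.12) and 1.51 (SE 0.15). GAR1, of the pseudouridylation particles, fell by 1.24 (SE 0.11). Among those that rose, EFL1, which releases a late assembly factor from the large subunit, rose by 3.04 (SE 0.62). In the knockdown NVL, an ATPase of large subunit assembly, fell at 8 hpf by 0.75 (SE 0.14, adjusted p = 0.026), and at that time 95 of the 117 genes lay below 0 with a median of -0.14. At 8 hpf 0.315% of all features were called lower and 47.3% lay below 0. Averaged over the times 83 of the 117 genes lay below 0, with a median of -0.05, where 48.3% of all features did. At 14 hpf 55 lay below 0 (median 0.01) and at 18 hpf 81 (median -0.06), where 49.9% of all features did at each time. On average over the times 4 of the 117 fell, AAMP by 0.40 (SE 0.08), BYSL by 0.25 (SE 0.05), BOP1 by 0.43 (SE 0.10) and NVL by 0.28 (SE 0.07), where 1.3% of all features were called lower. The call of AAMP held in each of the 16 fits that left out a library, while those of BYSL, BOP1 and NVL were lost in 9, 12 and 14 of them, with log2 changes from -0.27 to -0.23, -0.50 to -0.37 and -0.32 to -0.25. The 8 hpf call of NVL was lost in 6, without any of the 8 hpf libraries or either 14 hpf control, at -0.89 to -0.64 over the 16 fits. Without the 8 hpf libraries all 4 average calls were lost (AAMP -0.36, BYSL -0.25, BOP1 -0.38 and NVL -0.12), and with 8 hpf fitted alone that of NVL at this time (-0.74). The average call of NVL was also lost with library totals and with no filter beyond 1 count.

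Other genes whose messenger RNAs carry a TOP start in mammals were more mixed. Of 27 tested, 17 rose and 5 fell from 8 to 18 hpf, with a median of 0.89, where 33.7% of all features were called higher and 26.4% lower. The elongation factor genes EEF1D, EEF1B2 and EEF1G rose by 2.29 (SE 0.14), 2.23 (SE 0.11) and 1.77 (SE 0.11), in the range of the largest ribosomal protein changes. The copies of the elongation factor eEF2 split, with eef2b rising by 1.43 (SE 0.12) and eef2a.1 falling by 0.97 (SE 0.11). In the knockdown the called genes of this list were higher and not lower: the poly(A)-binding protein genes pabpc1b and pabpc1a at 8 hpf, by 0.92 (SE 0.16, adjusted p = 0.0147) and 0.44 (SE 0.09, adjusted p = 0.0462), and pabpc1b on average, by 0.43 (SE 0.08, adjusted p = 0.00722). Of all features 0.0282% were called higher at 8 hpf and 0.332% on average. These calls do not stand for the list. Of its 27 genes 20, 15, 19 and 15 lay below 0 at the successive times, with medians of -0.07, -0.01, -0.05 and -0.05. Of all features 47.3%, 48.8%, 49.9% and 49.9% did. On average 16 lay below 0 (median -0.05, 48.3% of all features). By then 8 had an unadjusted p under 0.05 (15.4% of all features did), 6 of them lower (8.14%). Of the 16 fits that left out a library, the average call of pabpc1b held in each, its 8 hpf call was lost without replicate 2 of the 8 hpf controls or replicate 1 of the 8 hpf knockdown, and the call of pabpc1a was lost in 14, at 0.42 to 0.44 throughout. With 8 hpf fitted alone both 8 hpf calls were lost (0.93 and 0.45), and without 8 hpf the average call of pabpc1b was (0.27). The call of pabpc1a was also lost with RLE factors and without the repeat families.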

How the data were processed

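Members and gene lists were chosen with earlier results of these data known. The authors deposited raw counts, whole numbers per Ensembl gene and per repeat family. STAR and GRCz11 are named in the submitters' processing notes. How reads were assigned to genes (program, strand, reads that match several copies) is not stated: not given in the sources used here. A table of Ensembl identifiers gave a symbol to 29201 of 32520 genes. No gene lengths or sequences were used.

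All 16 libraries, with 4399855 to 7694887 counts, entered a single edgeR 4.0.16 fit in R 4.3.3 (quasi-likelihood test, robust option on, TMM scaling, filterByExpr on the 8 groups, 1 mean per group, 8 residual degrees of freedom). It kept 17756 features, 16894 genes and 862 families, with a coefficient of variation of 0.177. The fit was also run on simulated data, in which genes varied independently and did not change with time. That run says nothing about small changes shared by many genes. Calls were made at 0.05 on p-values adjusted over all tested features (Benjamini-Hochberg). CPM were computed from the deposited counts with TMM scaling. Shares and medians are descriptions without a test.

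Replicates differed by more than counting noise in every group (chi-square per degree of freedom 3.89 to 31.4), so none was merged. By rule the genes named are, per comparison, up to 12 called ones with the lowest p in each direction, and those fixed by role. The 5 highest and 5 lowest changes were added for some comparisons. Some of these genes are also given for comparisons in which the rule did not pick them. RPL26 was named outside the rule and is not in the count of alternatives for single genes given below. Library totals, RLE factors, other filters, DESeq2 1.42.0, a replicate block, subsets of samples and leaving out each library were tried. Some genes, counted in every total, are not reported here by name.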

Additional observations from a re-analysis of the deposited data

How the results depend on the processing

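Between 8 and 18 hpf the count of ribosomal protein genes called stayed between 80 and 82 in both treatments when any library was left out, and from 8 to 11 hpf it was 63 to 77. It was 14 to 78 from 14 to 18 hpf, 0 to 43 from 11 to 14 hpf, 0 to 35 for the average knockdown comparison, 0 to 1 for the knockdown at 11 hpf, and 0 in each such fit at 8, 14 and 18 hpf and for the tests of differing changes. The 11 to 14 hpf count was 13 with library totals, 14 with DESeq2, 19 with the controls alone and 29 with no filter beyond 1 count. In the knockdown, with no filter beyond 1 count, it was 3 at 14 hpf, 1 at 18 hpf (RPLP0) and 22 on average. Fitted alone, 18 hpf gave 5 calls, among them RPLP0, RPL31, RPL39 and rplp2, and the average without the 8 hpf libraries gave 0. DESeq2 gave 4 on average. Apart from DESeq2 in the knockdown, the share of all features called in these fits is not given here. The counts thus show how calls shift with the fit, and not whether the ribosomal protein genes stand out in it. The cause of these shifts was not tested.

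Same-numbered replicates deviated together with correlations of 0.321, 0.495, 0.163 and 0.075 at the 4 times, the last under 0.1. The medians of the ribosomal protein genes shifted between replicates in the same direction in both treatments at each time. The labels do not say that a number marks a shared clutch or day, so whether the numbers pair the samples is undecided. The block was not used in the main fit, but it is among the 24 other fits counted for RPL31. With a replicate block the count of calls was 1 at 8 hpf, 1 at 11 hpf, 23 at 14 hpf, 7 at 18 hpf and 56 on average, where that fit called 3.5%, 0.676%, 1.77%, 0.659% and 11.8% of all features.

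The median changes in the fits that leave out a library ran from -0.088 to -0.038 at 8 hpf, -0.26 to 0.078 at 11 hpf, -0.34 to -0.10 at 14 hpf, -0.24 to -0.12 at 18 hpf, -0.18 to -0.09 on average, and 1.49 to 1.62 for 8 to 18 hpf in the controls. Shares of counts depend on the denominator. Over gene counts alone they were 5.18% and 4.86% (control and knockdown) at 8 hpf, 8.35% in the 11 hpf controls, 10.8% in the 14 hpf controls, and 15.4% and 13.8% at 18 hpf. Over the counts of all other genes they were 5.46% and 5.11%, 9.11% and 8.50%, 12.2% and 10.4%, and 18.2% and 15.9%. At 8 hpf they were 4.93% and 4.77% over the effective library size, and 4.48% and 4.27% with plain names only.

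Among single genes, signs turned for ones that were not called. RPL19 at 18 hpf was 0.0013 fitted alone and 0.042 with library totals, and its average was -0.011 without 8 hpf. At 18 hpf rps11l was 0.022 with library totals and 0.0067 with the replicate block, and rps27l was -0.0092 with RLE factors, -0.0065 with no filter and -0.011 with DESeq2. Leaving out a library gave ranges across 0 for RPL19 on average from -0.016 to 0.039, RPL5 (ENSDARG00000015862) on average from -0.071 to 0.011, rps11l on average from -0.0093 to 0.26, RPL19 at 14 hpf from -0.16 to 0.052, RPS2 at 14 hpf from -0.15 to 0.0038, RPL19 at 18 hpf from -0.041 to 0.040, rps19bp1 at 18 hpf from -0.16 to 0.066, rps11l at 18 hpf from -0.24 to 0.28 and rps27l at 18 hpf from -0.14 to 0.15. Over the genes named and the alternatives tried for them, 2443 values kept their direction and their side of the threshold, 59 lost the call, 63 gained one and 35 turned sign.

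Shares per coding length and searches of promoter letters were not run, since no lengths or sequences were used here. Depth limits rps11l most, a gene with few counts.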
